A study of Arabidopsis thaliana with 4 samples.

Results

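Gibberellin is sensed in Arabidopsis thaliana by 3 GID1 receptors and signals through 5 DELLA proteins, and the genes for all 8, together with the F-box gene SLY1, are described here in stems laid on their side. The 9 genes were found by their locus in the annotation of a 2-colour Agilent array: GID1A (AT3G05120), GID1B (AT3G63010), GID1C (AT5G27320), GAI (AT1G14920), RGA (AT2G01570, listed as RGA1 in RefSeq), RGL1 (AT1G66350), RGL2 (AT3G03450), RGL3 (AT5G17490) and SLY1 (AT4G24210). They are 9 of 18286 genes tested. Plants of ecotype Col with young inflorescence stems lay horizontally for 30 or 10 min, and a piece of stem below the removed tip was split by hand into a lower and an upper flank. Both flanks of one time shared an array, so the groups were lower and upper flank at 30 min and lower and upper flank at 10 min, with 2 arrays per time. On replicate 1 the lower flank carried Cy5, and on replicate 2 the dyes were exchanged. All groups were gravistimulated wild-type stems, and no upright stem was analysed here.

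A GID1 protein that has bound gibberellin takes hold of a DELLA protein, and the F-box protein SLY1 then brings the DELLA protein to an SCF ubiquitin ligase for destruction. DELLA proteins restrain growth by acting on transcription factors such as PIF4 and BZR1, and they also keep up the transcription of GID1 and gibberellin synthesis genes, a feedback that lowers those transcripts when gibberellin is plentiful. Stem elongation depends on removal of DELLA proteins, chiefly GAI and RGA. The arrays measured transcripts, and DELLA protein, on which gibberellin acts first, was not measured.

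Each gene had 1 probe, which named no other locus. All 9 probes were well above background in all 8 channels (2 dyes on 4 arrays), and none was saturated or marked as an outlier. Per the array annotation, with its genome build not given in the sources used, the receptor probes lie at positions 1432218 to 1432277 of chromosome 3 for GID1A, 23301914 to 23301973 of chromosome 3 for GID1B and 9630658 to 9630717 of chromosome 5 for GID1C. The DELLA probes lie on chromosome 1 at 5150659 to 5150718 for GAI and 24753428 to 24753487 for RGL1, on chromosome 2 at 255651 to 255710 for RGA, on chromosome 3 at 819669 to 819728 for RGL2 and on chromosome 5 at 5764677 to 5764736 for RGL3. The SLY1 probe lies on chromosome 4 at 12564366 to 12564425. Whether a DELLA probe also binds the transcript of another DELLA gene was not tested.

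Levels below are log2 of the background-corrected signal after loess within arrays and scaling between arrays. They can be set against each other only within a gene. A flank difference is the log2 ratio of lower over upper flank on one array, so a positive one means more transcript in the lower flank. Adjusted p-values are from limma over all genes tested, and a difference below 0.05 was called. The numbering of replicates follows the dye orientation, and the value with the replicate number as a block is given where it changes a call. Because 3 probes were dim (median spot signals of 102 for GID1B, 129 for RGL2 and 95.7 for RGL3 over local backgrounds between 50 and 64), and an offset of 50 is added to every signal, their differences are compressed. With 2 arrays against 2, an exact permutation test of a single gene cannot go below a two-sided p of 0.333.

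Median spot signals per channel ran between 156 and 333, and 17571 to 18233 of the tested genes were well above background in a given channel. Over genes, flank ratios of replicates 1 and 2 had a Pearson correlation of 0.44 at 30 min and -0.06 at 10 min, while across the times same-numbered arrays had 0.27 and 0.28. Markers of epidermis, xylem and fibre, phloem, photosynthetic tissue, endodermis and root hair on the array were all well above background in every channel. Of 5 flower markers 2 were, and 1 (AG) was in none. Root hairs were not sampled, yet all 3 of their markers passed, so signal above background does not identify the tissue here.

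Of the 9 genes, RGL1 was the 1 whose level differed between the times beyond the threshold, and it did so in both flanks alike. Its level in the lower flank was 10.76 and 10.49 at 30 min, against 9.76 and 9.86 at 10 min. In the upper flank it was 10.68 and 10.49 at 30 min, against 9.73 and 9.86 at 10 min. All 4 channels of 30 min lay above all 4 of 10 min. RGL1, a DELLA gene, thus averaged 10.63 ± 0.19 at 30 min and 9.81 ± 0.07 at 10 min in the lower flank (SD, n = 2 arrays each), a difference of 0.81 ± 0.11 (SE) or 1.76-fold, with an adjusted p of 0.00052. The upper flank averaged 10.59 ± 0.14 at 30 min and 9.79 ± 0.10 at 10 min, a difference of 0.79 ± 0.10 or 1.73-fold (adjusted p = 0.0033). The 95% intervals ran from 0.58 to 1.05 in the lower flank and from 0.56 to 1.03 in the upper flank. Both flanks were read on the same arrays, so the second comparison is not a separate repeat of the first.

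RGL1 was called higher at 30 min in both flanks under every one of 14 other settings, including the omission of each array in turn. Over these settings its difference ranged from 0.68 to 0.95 in the lower flank and from 0.70 to 0.89 in the upper flank. The other filters, the mean of all probes and the kept outlier spots could not change its estimate. RGL1 had 1 probe, well above background in all channels and not marked as an outlier. The size of its difference exceeded that of 98.6% of the genes tested in the lower flank and 98.8% in the upper flank. Calls were common in these comparisons: 14.2% of 18167 genes in the lower flank and 6.13% in the upper flank, and 2.04% (370 genes) were called higher at 30 min in both. Between the flanks RGL1 was nearly level, with a flank difference of 0.04 ± 0.04 at 30 min (95% interval -0.06 to 0.14) and 0.02 ± 0.04 at 10 min (-0.08 to 0.11).

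**Figure D1:**
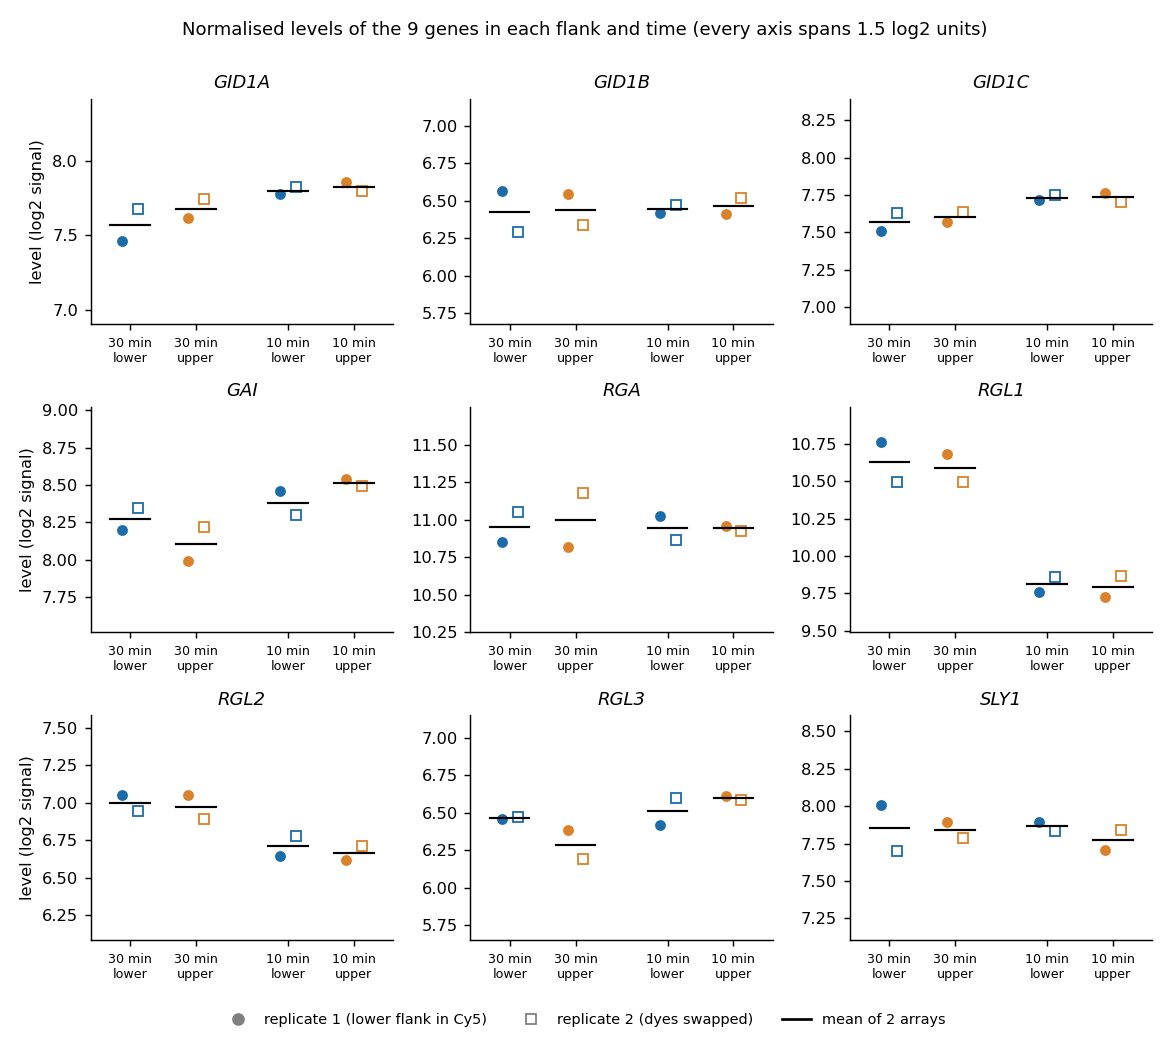
Normalised level (log2 signal) of each of the 9 genes in the lower (blue) and upper (orange) flank at 30 and 10 min, with 1 point per array and a bar at the mean of 2 arrays; every vertical axis spans the same log2 range. The 4 RGL1 values of 30 min lie between 10.49 and 10.76, above the 4 of 10 min, which lie between 9.73 and 9.86.

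GAI, the DELLA gene whose gain-of-function allele makes dwarf plants, was the 1 member whose flank difference turned over between the times on all arrays. The flank difference of GAI was 0.20 and 0.13 on the 2 arrays of 30 min, against -0.08 and -0.19 on the 2 arrays of 10 min. Both 30 min arrays thus had more GAI transcript in the lower flank and both 10 min arrays had more in the upper flank, a pattern found in 9.41% of 18135 genes, with the opposite pattern in 9.37% of 18148. The mean flank difference was 0.16 ± 0.04 at 30 min (1.12-fold, adjusted p = 0.253) and -0.14 ± 0.04 at 10 min (0.910-fold, adjusted p = 0.732), and neither was called. The flank difference at 30 min exceeded that at 10 min by 0.30 ± 0.06 (95% interval 0.14 to 0.46, unadjusted p = 0.0049), which did not pass over all genes (adjusted p = 0.188). With the replicate block all 3 were called, at adjusted p-values of 0.00041, 0.0024 and 0.00015.

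By flank, the GAI level stood at 8.20 and 8.35 in the lower flank at 30 min, against 8.46 and 8.30 at 10 min, and these overlapped. In the upper flank it stood at 8.00 and 8.22 at 30 min, against 8.54 and 8.49 at 10 min, with no overlap. The difference between the times in the upper flank was -0.41 ± 0.10 (0.753-fold, 95% interval -0.64 to -0.17), with an adjusted p of 0.0545. This call changed with the setting: the replicate block gave an adjusted p of 0.0187, the fit of both channels together 0.0397 and the fit without replicate 2 of 30 min 0.0253 (a difference of -0.52). In the lower flank the difference was -0.11 ± 0.10 (adjusted p = 0.518). The order of the 4 means was upper flank at 10 min, lower flank at 10 min, lower flank at 30 min and upper flank at 30 min, and the neighbours overlapped except the first pair.

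RGL3, a DELLA gene known for its part in jasmonate responses, had flank differences of 0.07 and 0.28 at 30 min, against -0.19 and 0.01 at 10 min. The 30 min arrays both lay above 0 and above both 10 min arrays. At both times replicate 1 of RGL3 lay below replicate 2, so the order of the replicates followed the dye orientation. Its flank difference was 0.18 ± 0.07 at 30 min (adjusted p = 0.448) and -0.09 ± 0.07 at 10 min, and the 2 times differed by 0.26 ± 0.10 (adjusted p = 0.393). None was called without the replicate block, and with it the adjusted p-values were 0.00026 at 30 min, 0.011 at 10 min and 0.00023 for the difference of the times. Without replicate 1 of 10 min its flank difference at 10 min changed sign to 0.015. The difference of the times was 0.37 without replicate 2 of 10 min, a fit that left 1 array of 10 min.

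In the lower flank the RGL3 level was 6.46 and 6.47 at 30 min, against 6.42 and 6.60 at 10 min. In the upper flank it was 6.39 and 6.19 at 30 min, against 6.61 and 6.58 at 10 min, with no overlap and a difference of -0.31 ± 0.10 (adjusted p = 0.113, and 0.0493 without replicate 1 of 30 min). The size depended on how background was handled: from the deposited processed signals the upper flank difference was -0.85 (adjusted p = 0.0361) and the flank difference at 30 min 0.54 (adjusted p = 0.117). Spot signals of RGL3 were 89.2 to 127, over a local background of 50 to 64.

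RGL2, the DELLA gene best known from seed germination, was higher at 30 min on every array in both flanks, and was not called. Its level was 7.05 and 6.94 at 30 min, against 6.65 and 6.78 at 10 min, in the lower flank. In the upper flank it was 7.05 and 6.89 at 30 min, against 6.62 and 6.71 at 10 min. The differences were 0.28 ± 0.10 in the lower flank (adjusted p = 0.0768) and 0.31 ± 0.10 in the upper flank (adjusted p = 0.110, and 0.0411 without replicate 2 of 30 min). Its flank differences were small, 0.03 ± 0.04 at 30 min and 0.05 ± 0.04 at 10 min.

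RGA, which with GAI restrains stem growth, showed no called difference. At 30 min RGA stood at 10.85 and 11.05 in the lower flank and 10.82 and 11.18 in the upper flank, against 11.02 and 10.86 in the lower flank and 10.96 and 10.93 in the upper flank at 10 min. All groups overlapped. The difference between the times was 0.01 ± 0.11 in the lower flank (95% interval -0.22 to 0.24) and 0.06 ± 0.12 in the upper flank (-0.22 to 0.34). Its flank difference was -0.05 ± 0.06 at 30 min and 0.00 ± 0.06 at 10 min, with opposite signs on the 2 arrays of each time.

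The 3 receptor genes had no called difference between flanks or times, and GID1A and GID1C lay lower at 30 min on every array. GID1A was at 7.46 and 7.68 in the lower flank and 7.61 and 7.74 in the upper flank at 30 min, against 7.77 and 7.82 in the lower flank and 7.86 and 7.80 in the upper flank at 10 min. No channel of 30 min reached the lowest of 10 min. The difference between the times was -0.23 ± 0.10 in the lower flank (adjusted p = 0.160, and 0.044 without replicate 2 of 30 min) and -0.15 ± 0.09 in the upper flank (adjusted p = 0.387).

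The flank difference of GID1A was -0.15 and -0.07 on the arrays of 30 min, against -0.08 and 0.02 on those of 10 min. At 30 min it averaged -0.11 ± 0.04 (adjusted p = 0.455, and 0.0025 with the replicate block), and at 10 min -0.03 ± 0.04. GID1C, like GID1A, separated the times without overlap. It was at 7.51 and 7.63 in the lower flank and 7.57 and 7.64 in the upper flank at 30 min, against 7.72 and 7.75 in the lower flank and 7.77 and 7.71 in the upper flank at 10 min. Its differences between the times were -0.16 ± 0.10 in the lower flank (adjusted p = 0.295) and -0.13 ± 0.09 in the upper flank (adjusted p = 0.431), and its flank differences were -0.03 ± 0.04 at 30 min and 0.00 ± 0.04 at 10 min.

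GID1B was at 6.57 and 6.29 in the lower flank and 6.54 and 6.34 in the upper flank at 30 min, against 6.42 and 6.48 in the lower flank and 6.42 and 6.52 in the upper flank at 10 min. Every group overlapped every other. Its 4 means lay within 0.04 of each other. The 95% intervals of the flank difference at 30 min ran from -0.22 to 0.01 for GID1A, from -0.11 to 0.09 for GID1B and from -0.14 to 0.07 for GID1C.

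SLY1, the F-box gene that marks DELLA proteins for the ligase, had flank differences of 0.12 and -0.08 at 30 min, against 0.19 and -0.0021 at 10 min. Replicate 1 was above 0 at both times and replicate 2 below it, so the sign followed the dye orientation. The same held for RGA and GID1B. The mean was 0.02 ± 0.07 at 30 min and 0.09 ± 0.07 at 10 min (adjusted p = 0.990 and 1.00, and 0.0083 at 10 min with the replicate block). Without replicate 1 of 10 min the value at 10 min changed sign to -0.0021. The SLY1 level was 8.01 and 7.70 in the lower flank and 7.89 and 7.79 in the upper flank at 30 min, against 7.90 and 7.84 in the lower flank and 7.71 and 7.84 in the upper flank at 10 min. These overlapped, with differences between the times of -0.01 ± 0.11 in the lower flank and 0.07 ± 0.10 in the upper flank.

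**Figure D2:**
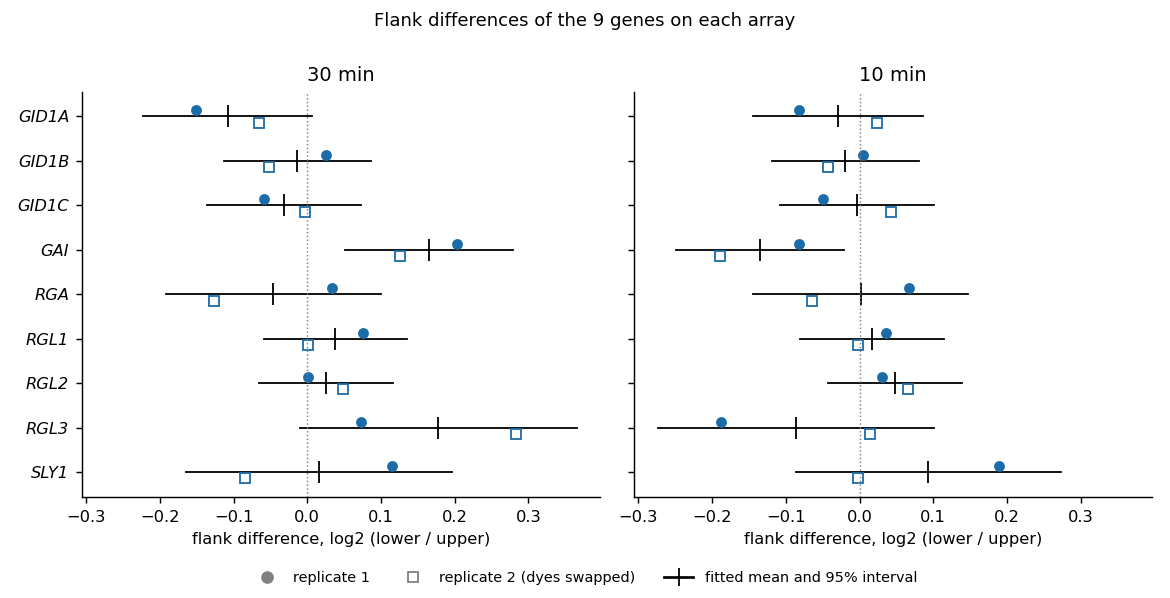
Flank difference, log2 (lower / upper), of the 9 genes at 30 min (left) and 10 min (right), with 1 point per array and the fitted mean with its 95% interval as a black line. The GAI interval lies above 0 at 30 min (0.05 to 0.28) and below 0 at 10 min (-0.25 to -0.02), before adjustment over all genes.

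Counted together, 0 of the 9 genes were called between the flanks at 30 min, where 0.528% of 18183 genes were, and 0 at 10 min, where 0% were (1116 genes had an unadjusted p under 0.05). The mean over both times called 0.219% of genes and the difference of the times 0.127%, again with 0 of the 9. With the replicate block 3 of the 9 were called at 30 min (GAI, RGL3 and GID1A), where 34.6% of all genes were, and 3 at 10 min (GAI, RGL3 and SLY1), where 23.4% were. The block called 3 for the mean of the times (GID1A, RGL3 and SLY1; 20.3% of all genes) and 4 for the difference of the times (GAI, RGL3, GID1A and SLY1; 38.0%). For the levels it called RGL1 in the lower flank (14.0% of all genes) and RGL1 and GAI in the upper flank (9.60%).

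Averaged over both times, the flank difference of the 9 genes ran from -0.07 ± 0.03 for GID1A to 0.05 ± 0.05 for SLY1, with a median of 0.01. The remaining means were 0.05 for RGL3, 0.04 for RGL2, 0.03 for RGL1, 0.01 for GAI, -0.02 for GID1B, GID1C and RGA. The flank difference at 30 min less that at 10 min was -0.08 for GID1A and SLY1, -0.05 for RGA, -0.03 for GID1C, -0.02 for RGL2, 0.01 for GID1B and 0.02 for RGL1, well short of the 0.30 of GAI and the 0.26 of RGL3.

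Directions were also counted without a test. At 30 min 4 of the 9 had both arrays above 0 (25.0% of all genes) and 2 had both below (24.0%), and at 10 min the counts were 1 above (22.3%) and 1 below (20.6%). Both 30 min arrays lay above both 10 min arrays for 2 genes in each flank, RGL1 and RGL2 (32.0% of all genes in the lower flank, 28.8% in the upper). They lay below for GID1A and GID1C in the lower flank (27.7%) and for GID1A, GID1C, GAI and RGL3 in the upper flank (26.3%). The median absolute flank difference at 30 min was 0.04 for the 9 genes and 0.04 for all genes.

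**Figure D3:**
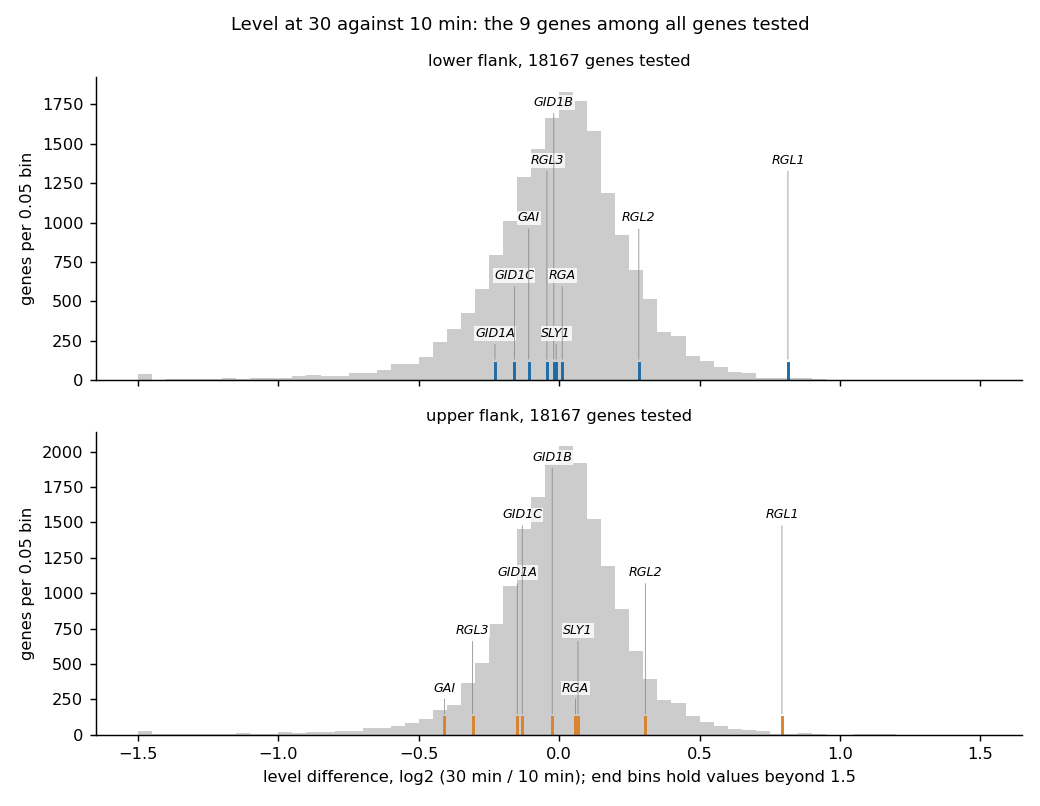
Level difference, log2 (30 min / 10 min), of the 9 genes (coloured ticks) among all 18167 genes tested (grey histogram), for the lower flank above and the upper flank below. RGL1 lies at 0.81 and 0.79 in the right tail, and GAI at -0.41 in the upper flank.

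The same comparisons were read for other genes of gibberellin synthesis, inactivation and signalling, of the SCF ligase, and for DELLA partners, DELLA targets and GASA genes. Of 62 listed genes, 57 were on the array and 50 were tested. Between the flanks at 30 min 1 of the 50 was called, the synthesis gene GA3OX1, which makes bioactive gibberellin. Its flank difference was 0.62 and 0.81 at 30 min, against 0.03 and 0.02 at 10 min, a mean of 0.71 ± 0.05 at 30 min (adjusted p = 0.0174). With median centring in place of loess the mean was 0.69 and was not called. GA20OX1, which encodes the preceding enzyme, reached 0.55 and 1.01 at 30 min, against -0.03 and 0.09 at 10 min, and was not called (0.78 ± 0.11, adjusted p = 0.0875, and 3.6e-05 with the replicate block). The inactivating enzyme gene GA2OX2 had 0.27 ± 0.04 at 30 min (adjusted p = 0.0845, and 0.00017 with the block), and GA2OX1 had -0.05 ± 0.04.

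None of the listed signalling genes, SCF subunits or GASA genes was called between the flanks. The zinc finger gene ENY, a DELLA partner listed with the signalling genes, had -0.20 ± 0.05 at 30 min (adjusted p = 0.243, block 0.00017). The RING gene BRG3 had 0.19 ± 0.06 (0.358, block 0.00036). Of the SCF subunits measured on all 4 arrays, AT5G42190 (ASK2) and RBX1 had the widest values, -0.02 ± 0.04 and -0.02 ± 0.05. CUL1, without a value on replicate 1 of 30 min, had 0.06 ± 0.07 (adjusted p = 0.898). XERICO, a DELLA target that acts on abscisic acid, had -0.16 ± 0.05 (0.296, block 0.00048).

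The GASA genes are a family of small secreted peptides, several of which respond to gibberellin. Of the 8 tested, 5 were called lower in the lower flank at 30 min with the replicate block, and 3 were called higher there at 10 min. Of all genes, the block called 3026 of 18183 lower there at 30 min and 2168 of 18234 higher at 10 min. The flank difference at 30 min of GASA6 was -0.29 ± 0.08 (adjusted p = 0.247, block 3.4e-05) and that of AT1G22690 was -0.27 ± 0.08 (adjusted p = 0.311, block 0.0001). With each time fitted alone, GASA6 (adjusted p = 0.00023), AT1G22690 (0.00092) and ENY (0.0328) were also called at 30 min. So were GA20OX1 (1.7e-33) and GA2OX2 (0.00089). In that fit all of these genes had the same SE, 0.062, so their p-values only restate the size of the difference. The block called 1 of the 12 other signalling genes tested higher and 4 lower in the lower flank at 30 min, and 0 of the 4 SCF subunits. Of all 18183 genes it called 3263 higher and 3026 lower there.

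Between the times, 4 of the 50 were called higher at 30 min in the lower flank (6.52% of all genes) and 6 lower (7.68%). In the upper flank 1 was called higher (2.48% of all genes) and 3 lower (3.65%). The DELLA partners PIF4 and BZR1 are 2 of the 6 and 2 of the 3 genes called lower. Without the 4 genes of the DELLA partner list, 4 of 46 were called higher and 4 lower in the lower flank, and 1 higher and 1 lower in the upper flank. The medians of the 50 were -0.03 and -0.01, against 0.01 and 0.01 for all genes. GA3OX1 rose by 0.65 ± 0.10 in the lower flank (adjusted p = 0.0011) and GA20OX1 by 0.54 ± 0.11 (0.0055), while in the upper flank they stood at -0.05 and -0.21, not called. WRKY27, a DELLA target, rose by 0.35 in the lower flank (0.0362) and stood at 0.41 ± 0.11 in the upper flank (0.0742, and 0.0199 with the replicate block). KAO2, an earlier synthesis gene, had -0.37 in the lower flank (0.0339) and -0.35 ± 0.10 in the upper (0.0702). The RING gene BRG1 had -0.43 in the lower flank (0.0162) and -0.29 ± 0.12 in the upper (0.210). Without the replicate block, the difference between the flanks itself was called for none of these 3. With it, BRG1 was called at 30 min (-0.13, adjusted p = 0.0011), for the mean of the times (0.0115) and for their difference (0.0037). WRKY27 was called at 30 min (0.08, adjusted p = 0.0317), at 10 min (0.14, 0.0059) and for the mean (0.0038). KAO2 was not called.

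GASA6, of the gibberellin-responsive GASA family, rose by 1.08 ± 0.09 in the upper flank (adjusted p = 0.00042) and by 0.48 ± 0.11 in the lower flank (0.0167). The GASA family gene AT1G22690 had -0.59 ± 0.10 in the lower flank (0.0022). BRG3 fell in both flanks, by 0.36 in the lower (0.0319) and 0.50 in the upper (0.0149). The DELLA partners PIF4 and BZR1, named after their values were seen, fell in both flanks as well. PIF4 had -0.84 ± 0.10 in the lower flank (adjusted p = 0.00027) and -0.81 ± 0.11 in the upper flank (0.0041), and BZR1 had -0.37 ± 0.10 (0.027) and -0.47 ± 0.10 (0.0256). The other genes of the partner list, PIF3 and PIL5, were not called. They had -0.09 and -0.13 in the lower flank (adjusted p = 0.602 and 0.392) and -0.08 and -0.19 in the upper flank (0.752 and 0.260). In at least 1 setting that kept all arrays, the lower flank calls of KAO2, GA20OX1, BRG1, BRG3, WRKY27 and GASA6 and the upper flank call of BRG3 were lost, each in the same direction. PIF4 and BZR1 were not recomputed under the other settings, apart from the replicate block.

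**Figure D4:**
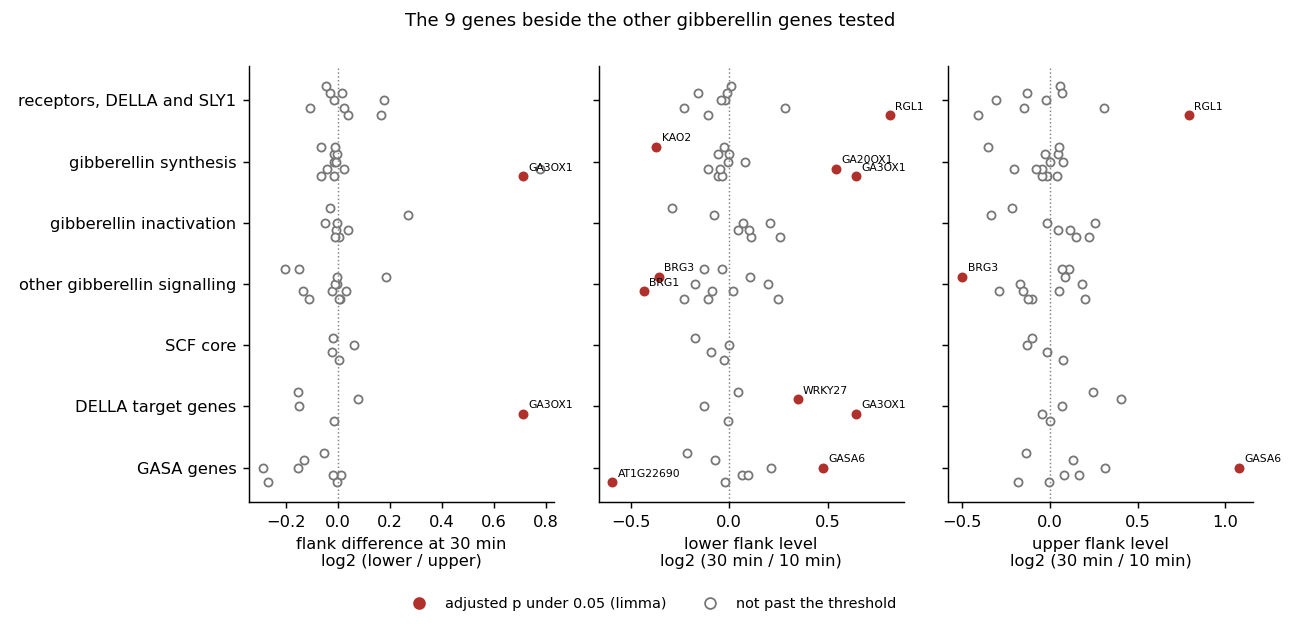
The 9 genes (top row) beside the other gibberellin gene lists: flank difference at 30 min (left), level difference of 30 against 10 min in the lower flank (middle) and in the upper flank (right), all log2, with 1 point per tested gene and filled points for an adjusted p under 0.05. RGL1 is the filled point of the top row in both level panels, at 0.81 and 0.79.

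The widest ranges over the 4 group means were those of 3 genes: RGL1 (0.83), GAI (0.41) and RGL2 (0.33). Over the 8 channels of 4 arrays, which share arrays in pairs, the genes most like RGL1 among 17753 were AT5G46650 (r = 0.999), AT4G18380 (0.998) and AT2G36570 (0.997). All of them were called higher at 30 min in both flanks, by 0.47 and 0.45, 0.42 and 0.43, and 0.60 and 0.57 in the lower and upper flank. Their direction follows from the choice by likeness to RGL1 over the same channels. The genes most like GAI were EIF4A1 (0.988), CPFTSY (0.985) and PRPS20 (0.985), and those most like RGL2 were AT2G34050 (0.995), DRB4 (0.994) and AT5G50460 (0.994). Of these, AT2G34050 was called higher at 30 min in the lower flank (0.39, limma adjusted p = 0.0273). It was not called in the upper flank, and the others were called in neither.

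Marker sums moved with some of these values, and their part in them was not tested. The summed signal of the 4 phloem markers was 3010 and 2890 in the lower flank and 3390 and 3360 in the upper flank at 30 min, against 3510 and 3450 in the lower flank and 3190 and 3310 in the upper flank at 10 min. That of the 5 epidermis markers was 5550 and 4860 in the lower flank and 6310 and 5600 in the upper flank at 30 min, against 5340 and 6230 in the lower flank and 5440 and 6380 in the upper flank at 10 min. The phloem sums, like the GAI ratios, changed which flank was higher between the times, in the opposite sense. Of the 4 phloem markers, 1 was called lower in the lower flank at 30 min, as were 36 of 18183 genes. With the replicate block all 4 were called lower there at 30 min and higher at 10 min. Of all genes, the block called 3026 of 18183 and 2168 of 18234 so. In the lower flank, 1 phloem and 1 epidermis marker were called lower at 30 than at 10 min (7.68% of all genes).

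Some photosynthetic and xylem markers moved as well. The flank difference of the light-harvesting genes was -0.18 for LHCB5, -0.18 for LHCA4 and -0.17 for LHCA2 at 30 min, against 0.14, 0.11 and 0.03 at 10 min, so these too changed sign between the times in the opposite sense to GAI. At 30 min all 3 were called lower in the lower flank than at 10 min, with differences of -0.46 (adjusted p = 0.0144), -0.67 (0.001) and -0.34 (0.0319). RBCS1A had flank differences of -0.15 ± 0.45 at 30 min and -0.15 at 10 min. The summed photosynthetic signal was 94400 and 123000 in the lower flank and 131000 and 112000 in the upper flank at 30 min, against 111000 and 147000 in the lower flank and 151000 and 112000 in the upper flank at 10 min. At both times the lower flank sum was below the upper on replicate 1 and above it on replicate 2. The order of the flanks in this sum thus followed the dye orientation. The 4 xylem and fibre markers on the array had flank differences between -0.16 and -0.09 at 30 min. Each was called lower with the replicate block, as were 3026 of all 18183 genes, and none without it. The sum of the 4 xylem and fibre markers was 1620 and 1720 in the lower flank and 1810 and 1790 in the upper flank at 30 min, against 1780 and 1710 in the lower flank and 1890 and 1670 in the upper flank at 10 min. Flower marker sums stayed between 336 and 353 at 30 min and between 332 and 345 at 10 min. Endodermis marker sums lay between 1820 and 2000 at 30 min, below the 2040 to 2100 of 10 min, and root hair marker sums between 295 and 389 at 30 min and between 293 and 315 at 10 min. In whole flanks, fewer cells of a type and less transcript per cell cannot be told apart.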

How the data were processed

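Each of 4 arrays held the lower and upper flank of one time. Per the file headers, Agilent Feature Extraction 8.1.1.1 made the deposited values: intensity of each spot and its local background, processed intensity after background subtraction and dye normalization, the log10 ratio of Cy5 over Cy3, and 0 or 1 flags (other values). The deposited series table held log10 values of lower against upper flank, with column medians of 0, -0.00128, 0 and -0.00264. Columns of replicate 1 lay within 0.004 of the scanner log ratio, and those of replicate 2 within 0.004 of the ratio of processed intensities. From the other of these values they differed by up to 0.32 for replicate 1 and 0.34 for replicate 2. The direction of the series table follows from that comparison. Columns left unmapped numbered 0.

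In limma 3.58.1 (R 4.3.3), mean intensity was corrected by normexp (offset 50), ratios were normalized by loess with control spots (1075 of 22575) at weight 0, outlier spots were left out, and levels were scaled by Aquantile. Of 21500 gene probes, 20269 named 1 locus. A gene was its brightest one-locus probe, tested if both arrays of some flank and time showed it well above background (18286 genes). Flank ratios of all arrays were fitted with a mean per time, levels per flank, by lmFit and eBayes with Benjamini-Hochberg adjustment. The steps were tested on simulated data.

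The labels describe the arrays of a time as biological replicates with exchanged dyes, yet the labelling protocol has every cRNA labelled with both dyes, so p-values may measure technical spread. The 4 arrays lay on 4 slides, scanned on 1 day. Deviations of same-numbered arrays from their time mean correlated at 0.87 over genes. The number of arrays limits the precision. Alternatives were another offset (16), median centring, the deposited processed signals and series table, other filters, the replicate block and omission of each array. RefSeq (TAIR10.1) gave symbols only. The 9 genes and all lists were chosen with earlier results of these data known. Named list genes were those called in any comparison and, per list, the 2 with the widest flank difference at 30 min among genes measured on all 4 arrays. Likeness was Pearson's r over 8 channels, for the 3 members of widest range.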

Additional observations from a re-analysis of the deposited data

Results flagged for a closer look

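For 3 of the 23 named genes looked at, the flank difference had one sign on both 30 min arrays and the other on both 10 min arrays; 9.41% of all genes did so in the direction of GAI and 9.37% in the direction of GASA6 and AT5G42190. GAI had 0.20 and 0.13 at 30 min, against -0.08 and -0.19 at 10 min, a difference between the times of 0.30 ± 0.06 (limma adjusted p = 0.188, and 0.00015 with the replicate block). GASA6 had -0.19 and -0.39 at 30 min, against 0.44 and 0.20 at 10 min, a difference of -0.61 ± 0.11 (adjusted p = 0.155, and 1.1e-05 with the block). AT5G42190 (ASK2) had -0.03 and -0.01 at 30 min, against 0.08 and 0.03 at 10 min, a difference of -0.075 ± 0.050 (adjusted p = 0.670, and 0.0676 with the block).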

How the results depend on the processing

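The rise of RGL1 was called in both flanks under each of the 14 other settings. Of 738 values of the 9 genes recomputed under other settings, 669 kept their direction and their side of the threshold, 21 became called in their direction, and 48 changed sign. No value that changed sign was called in the analysis reported above. Of 294 values for 21 results of the listed genes, 230 kept both, 34 lost their call, 27 gained one and 3 changed sign. For the 9 genes, the mean of all probes, the other filters and the kept outlier spots each left 54 of 54 values on their side of the threshold. These settings could not change the estimates, since each gene had 1 probe, well above background and not marked as an outlier. Fitting each time alone also repeated the estimates. With the replicate block, counts of called genes were 6289 at 30 min, 4266 at 10 min, 3698 for the mean of the times, 6907 for the difference of the times and 1744 for the upper flank level. The numbers also mark the dye, and same-numbered arrays deviated together (0.87 over genes). An offset of 16 called 47 at 30 min (42 higher and 5 lower in the lower flank, against 60 and 36). The deposited processed signals called 60 at 30 min (50 and 10), 2 for the difference of the times, 942 lower and 463 upper flank levels, and the authors' series values called 61 (50 and 11) at 30 min and 2 for the difference of the times. Median centring in place of loess called 0 at 30 min, 0 for the mean and 0 for the difference of the times with limma (173, 103 and 143 at an unadjusted p under 0.05). Each time fitted alone gave 613 at 30 min and 86 at 10 min, and channels centred on their median gave 672 lower and 592 upper flank levels. Without each array in turn, counts ran from 214 to 613 at 30 min, 44 to 104 at 10 min, 134 to 218 for the mean, 234 to 429 for the difference of the times, 932 to 3307 for the lower flank level and 461 to 3190 for the upper; the lowest level counts came without replicate 1 of 10 min and the highest without replicate 2 of 30 min. The cause was not tested.

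Signs changed as follows. Median centring gave flank differences of 0.00011 for RGA, 0.0075 for AT5G42190 and 0.010 for RBX1 at 30 min and -0.0094 for RGL2 at 10 min, means of 0.0015 for RGA, -0.0034 for RGL2 and -0.0078 for RGL3, and a difference of the times of 0.012 for RGL2. The processed signals gave 0.00088 for GID1C at 10 min and lower flank levels of 0.024 for GID1B and -0.0057 for RGA, the authors' series values gave 0.0010 for GID1C at 10 min, and quantile scaling a lower flank level of -0.00034 for RGA. Omission of each array gave these ranges. For the flank difference at 30 min SLY1 -0.084 to 0.12, RBX1 -0.075 to 0.040, GID1B -0.051 to 0.025 and RGA -0.13 to 0.034. For the flank difference at 10 min GID1A -0.082 to 0.024, GID1C -0.050 to 0.043, RGA -0.064 to 0.067, RGL1 -0.0017 to 0.036, RGL3 -0.19 to 0.015, SLY1 -0.0021 to 0.19 and GID1B -0.043 to 0.0047. For the mean of both times GID1C -0.041 to 0.0055, GAI -0.012 to 0.042, RGA -0.062 to 0.018, RGL3 -0.0065 to 0.10 and GID1B -0.035 to 0.0028. For the difference of the times RGA -0.13 to 0.033, SLY1 -0.18 to 0.022, GID1B -0.032 to 0.044, GID1C -0.074 to 0.018, RGL1 -0.017 to 0.059 and RGL2 -0.047 to 0.00041. For the lower flank level (30 against 10 min) SLY1 -0.16 to 0.14, GID1B -0.16 to 0.12, RGA -0.089 to 0.11 and RGL3 -0.13 to 0.045. For the upper flank level GID1B -0.13 to 0.076 and RGA -0.12 to 0.24. The slide as a block was not run, since each array was a slide of its own. GID1B, RGL2 and RGL3 are limited by signals close to background.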
